A study of Mus musculus with 6 samples.

Results

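The subunits of the respiratory chain and ATP synthase that are encoded in the nucleus were taken by symbol from the table of S-180 tumours. A row was a member when its symbol began with Nduf followed by a, b, c, s or v, with Uqcr, with Cox followed by a digit from 4 to 8, or with Atp5, or was Sdha, Sdhb, Sdhc, Sdhd, Cyc1 or Cycs. Rows with -ps in the symbol were left out; 3 members without that mark, Ndufa11b, Ndufs6b and Cox6c2, are processed pseudogenes in the annotation used and were kept by the rule. This gave 94 of 20160 rows: 45 of complex I, 4 of complex II, 9 of complex III, 19 of complex IV, 16 of complex V and cytochrome c. Of these, 81 were structural subunits or cytochrome c, 8 were the complex I assembly factors Ndufaf1 to Ndufaf8, and the others were those 3 pseudogenes, the paralog Ndufa4l2 and the supercomplex factor Cox7a2l. Ndufa4 and Ndufa4l2 were counted with complex IV. Atp5o, Atp5s, Cox8b, Cox8c, Ndufs5 and Ndufs7 also fit the rule by name and were not analysed here.

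S-180 is a mouse sarcoma cell line; the title of the series speaks of osteosarcoma. The cells were injected under the skin of mice of the BALB/c nude strain, athymic animals with few T cells, and total RNA of the tumours was sequenced. The model group (3 libraries) carried the tumours alone as far as the labels say, and the RGLS group (3 libraries) had received RGLS, a preparation of Ganoderma lucidum spores without their coat going by the series title, before the cells. Dose, age and sex are not given, and whether each of the 3 samples was a mouse of its own is not stated, so p-values measure only the spread between these samples.

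Oxidative phosphorylation moves electrons from NADH through complex I, or from succinate through complex II, to ubiquinone, on through complex III and cytochrome c to complex IV, which reduces oxygen. Complexes I, III and IV pump protons across the inner mitochondrial membrane, and complex V, the ATP synthase, uses the gradient to make ATP. Apart from complex II, each complex also holds subunits encoded in mitochondrial DNA, so both genomes must supply parts. Tumour cells vary widely in how far they rely on this route or on glycolysis.

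Values are CPM, read counts that the authors scaled to library size, and are not divided by gene length. The 20160 rows held 369453 to 458641 reads per library, 1.79% to 2.21% of the authors' effective library size, and 1 read was worth 0.0390 to 0.0575 CPM. The members were read thinly: 397, 402 and 397 reads fell on them in model and 685, 559 and 440 in RGLS. The median member had 11.5 reads over all 6 libraries, beside 11 for all rows, and 39 members had fewer than 10. In the model libraries 56 to 58 members had a read, against 74, 67 and 61 in the RGLS libraries. The RGLS libraries were also the deeper ones. There 1 read was worth 0.0390 to 0.0467 CPM, against 0.0566 to 0.0575 CPM in model. A read was present in every library for 31 members. No model read was found for 17 members, which had 58 RGLS reads together, and no RGLS read for 5 members, which had 9 model reads together. Detection was higher in RGLS beyond the members too. A model read was found for 16324 of all 20160 rows and an RGLS read for 18206, beside 77 and 89 of the 94 members. The part of library depth in these counts was not tested. Each ratio of reads, RGLS over model, was taken per effective library size and is given with its exact 95% interval in parentheses, which holds counting error and nothing else.

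For 25 of the 94 members (26.6%), 50 or more exonic bases were shared with exons of a gene running the other way, and 31.8% of all annotated rows were overlapped in this way. Overlapped rows held 971796 of 1131740 model reads and 1061921 of 1316354 RGLS reads in the table. Among members they held 742 of 1196 and 814 of 1684 reads. The sources used here do not state the strand setting of the counting, so reads of such a row cannot be assigned to the member or to the gene opposite. The strand of reads in rows with no gene opposite was not tested either. The gene opposite is named where such a member is described.

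Promoters were read from RefSeq for GRCm38.p6, as 300 bases from 250 before to 50 after each gene start; 74 members matched, with 79 windows. A match is a description of the letters and not of binding. The core bound by NRF1, a regulator known for respiratory chain genes, was searched as GCGCATGC (other strand GCATGCGC) and was in 13 member windows (16.5%), beside 2.71% of all 32851 windows. The core of ETS factors such as GABP, CCGGAAGT (other strand ACTTCCGG), was in 5 (6.33%, beside 3.89%), and the YY1 core, AAGATGGC (other strand GCCATCTT), in 10 (12.7%, beside 2.75%). Any of the 3 was in 27 member windows (34.2%, beside 8.83%). The 300-base window of another gene on the other strand overlapped 29 member windows (36.7%, beside 10.8%). The other gene need not start inside the member window, and a row is overlapped only when exons also meet.

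The windows of 4 members are shown, with any of the 3 cores in capitals: Atp5b as the member with most reads, Ndufs3 and Atp5pb for a gene starting on the other strand within the window (Kbtbd4 and Wdr77), and Uqcrc1 for an NRF1 core. They lie at chr10:128083057-128083356 on the plus strand, chr2:90904672-90904971 on the minus strand, chr3:105959214-105959513 on the minus strand and chr9:108936398-108936697 on the plus strand, and are written 5′ to 3′ along the gene. Ndufs3 holds an ETS core, Atp5pb a YY1 core and Uqcrc1 an NRF1 core, and none of the 3 strings is in the Atp5b window. The capitals of Uqcrc1 cover the NRF1 core on both strands, whose letters overlap there.
Atp5b: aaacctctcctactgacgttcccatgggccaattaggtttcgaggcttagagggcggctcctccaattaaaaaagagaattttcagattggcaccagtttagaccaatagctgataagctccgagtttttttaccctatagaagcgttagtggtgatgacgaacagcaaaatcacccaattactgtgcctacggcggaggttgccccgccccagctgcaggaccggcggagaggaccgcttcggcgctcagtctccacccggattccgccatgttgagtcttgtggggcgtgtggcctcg
Ndufs3: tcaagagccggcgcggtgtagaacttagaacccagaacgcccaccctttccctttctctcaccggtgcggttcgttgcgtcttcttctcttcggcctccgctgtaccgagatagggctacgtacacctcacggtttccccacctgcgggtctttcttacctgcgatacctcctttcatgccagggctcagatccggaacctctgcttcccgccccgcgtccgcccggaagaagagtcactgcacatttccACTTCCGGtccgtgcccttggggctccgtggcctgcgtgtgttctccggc
Atp5pb: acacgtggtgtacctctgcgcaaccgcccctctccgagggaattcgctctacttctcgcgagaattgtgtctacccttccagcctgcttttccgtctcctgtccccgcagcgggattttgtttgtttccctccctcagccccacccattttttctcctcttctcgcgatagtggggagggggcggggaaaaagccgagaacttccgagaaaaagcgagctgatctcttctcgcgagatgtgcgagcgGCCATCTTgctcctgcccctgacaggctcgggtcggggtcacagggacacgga
Uqcrc1: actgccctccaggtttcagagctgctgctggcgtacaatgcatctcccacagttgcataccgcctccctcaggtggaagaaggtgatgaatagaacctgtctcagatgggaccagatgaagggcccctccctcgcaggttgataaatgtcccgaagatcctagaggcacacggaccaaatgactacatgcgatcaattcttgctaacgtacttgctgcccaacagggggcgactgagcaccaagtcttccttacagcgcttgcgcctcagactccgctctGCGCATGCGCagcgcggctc

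No member was called different between the groups, and most were too low to test. Limma on log2(CPM + 1) tested the 6 members with at least 1 CPM in at least 3 libraries, Atp5b, Atp5pb, Ndufb2, Ndufs3 and Cox6c among them, and called 0 at an adjusted p of 0.05. Over all 2319 rows tested it called 22 higher (0.949%) and 12 lower (0.517%) in RGLS. At an unadjusted p under 0.05, 1 of the 6 was higher, Atp5b, where 6.04% of all tested rows were, and 0 were lower, where 17.2% of all tested rows were. EdgeR on the reads recovered from the CPM values tested 13 members and called 0 (0.953% of its 3674 rows were higher and 0.381% lower), with Atp5b and Ndufb10 higher at an unadjusted p under 0.05 (7.38% of rows). DESeq2 gave 17 members an adjusted p and called 0 (0.817% of 4526 rows were higher and 0.221% lower). Without adjustment it gave a p to all 94 members and 20160 rows. At an unadjusted p under 0.05, 2 of the 94 members were higher, where 2.73% of the 20160 rows were. At an unadjusted p under 0.05, 0 members were lower in edgeR or DESeq2, where 11.7% and 1.29% of rows were.

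Summed over all members, model libraries held 22.8, 22.7 and 22.7 CPM and RGLS libraries 26.7, 24.4 and 20.6 CPM. The means were 22.7 ± 0.0962 and 23.9 ± 3.09 (SD, n = 3 each), a log2 ratio of 0.07, and the groups overlapped. The model libraries lay close together, while RGLS 1 was the highest of all libraries and RGLS 3 the lowest. The ratio turned negative, -0.20, when each sum was taken as a share of the rows with no gene opposite, and rose to 0.27 as a share of all rows. A group of 6 members made up 46.1% of all member reads, and Atp5b alone made up 11.6%.

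Complex I summed to 11.3, 12.1 and 12.7 CPM in model and to 11.5, 10.7 and 10.003 CPM in RGLS. The means were 12.04 ± 0.668 and 10.7 ± 0.765 CPM (SD, n = 3 each), and the groups overlapped through RGLS 1 and model 1. The log2 ratio was -0.16, but 0.03 as a share of all rows and 0.09 over its 31 members with no gene opposite. Complex II, at 0.115, 0.509 and 0.685 CPM against 0.740, 0.349 and 0.608 CPM, varied within the model group by more than the groups differed. Complex III held 1.21, 1.41 and 1.20 CPM against 2.18, 1.97 and 1.12 CPM, with RGLS 1 and 2 above every model library and RGLS 3 below every one.

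Complex IV held 2.82, 1.98 and 2.57 CPM against 2.84, 2.36 and 2.52 CPM, with means of 2.46 ± 0.431 and 2.58 ± 0.247 CPM (SD, n = 3 each); its log2 ratio of 0.07 became -0.19 as a share of rows with no gene opposite. Complex V held 7.37, 6.73 and 5.54 CPM against 9.39, 8.999 and 6.31 CPM, with means of 6.54 ± 0.929 and 8.23 ± 1.68 CPM (SD, n = 3 each). RGLS 1 and 2 were again above every model library and RGLS 3 was not. The complex V log2 ratio of 0.33 turned to -0.16 without Atp5b. The 8 assembly factors of complex I, which help build it and are not part of it, summed to 0.855 ± 0.280 CPM in model and 0.523 ± 0.101 CPM in RGLS (SD, n = 3 each), with overlap.

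Within complex I, the core subunits encoded in the nucleus belong to the part that carries the electrons to ubiquinone. Ndufs3, a core subunit of the arm that reaches into the matrix, had 1.55, 1.92 and 1.60 CPM in model and 1.17, 1.09 and 1.22 CPM in RGLS. Every RGLS library was below every model library (1.69 ± 0.202 against 1.16 ± 0.0622 CPM, SD, n = 3 each). The ratio of reads was 0.684 (0.49998 to 0.935), and limma gave -0.32 on the log2 scale (SE 0.190, adjusted p = 0.336), so the difference did not pass the test. Kbtbd4 lies opposite, covering 88 exonic bases, and its row went the same way: 14.985 ± 2.54 CPM in model and 11.0 ± 1.49 CPM in RGLS (SD, n = 3 each), with no overlap. Per kilobase of exon the Kbtbd4 row held 495 reads and the Ndufs3 row 78.1, and what part of the Ndufs3 reads came from it was not tested.

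Ndufs1, the large core subunit that carries several iron-sulphur clusters, had 0.518, 0.622 and 0.799 CPM in model and 0.429, 0.481 and 0.374 CPM in RGLS. Its RGLS libraries were all lower, as were those of the transcript opposite, Ino80dos, which covers 489 exonic bases (2.79 CPM in model and 2.23 CPM in RGLS). Ndufv2, an iron-sulphur subunit of the NADH-oxidising tip with no gene opposite, had 0.345, 0.679 and 0.457 CPM in model and 0.273, 0.131 and 0.187 CPM in RGLS, also without overlap. Its ratio of reads was 0.405 (0.195 to 0.804). It was too low for limma and for edgeR and was tested by neither.

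Ndufb2, an accessory subunit of the membrane arm with Gm16272 and Braf opposite over 156 and 146 bases, had 1.04, 1.47 and 2.28 CPM in model and 1.25, 1.62 and 1.59 CPM in RGLS. Model 1 was the lowest library and model 3 the highest, and limma gave a log2 fold change of -0.04 (SE 0.215, adjusted p = 0.937), which turned to 0.06 when every library was shifted to the same median. Ndufb10, an accessory subunit of the same arm with no gene opposite, is named after its values were seen. It had 0.806, 0.452 and 0.342 CPM in model and 1.01, 0.786 and 1.45 CPM in RGLS. RGLS 2 fell just below model 1, the ratio of reads was 2.01 (1.29 to 3.23), and edgeR gave a log2 fold change of 1.01 with an adjusted p of 0.252.

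Ndufb3, an accessory subunit of the membrane arm likewise named for its values, had no model read and 5, 6 and 3 RGLS reads. Ndufa10, an accessory subunit outside the naming rules, had 2, 1 and 2 reads in model and 10, 8 and 2 in RGLS. At these depths single reads set the order of the libraries.

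Complex II, succinate dehydrogenase, also serves the tricarboxylic acid cycle. Sdha, its flavin-binding catalytic subunit, had 1, 2 and 2 reads in model and 13, 2 and 3 in RGLS, so 1 library held most of its RGLS reads. Sdhb, the iron-sulphur subunit, had no model read and 2, 3 and 3 RGLS reads, and Sdhc, a membrane anchor, had none in model and 3, 2 and 0 in RGLS. Sdhd, the other membrane anchor, went the opposite way, with 1, 7 and 10 reads against 1, 1 and 7, and leaving it out moved the complex II log2 ratio from 0.37 to 2.18.

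In complex III, Uqcrfs1, the Rieske iron-sulphur protein that takes electrons from ubiquinol, had 0.403, 0.396 and 0.342 CPM in model and 0.779, 0.961 and 0.514 CPM in RGLS. Every RGLS library was above every model library (0.380 ± 0.0331 against 0.751 ± 0.225 CPM, SD, n = 3 each), the ratio of reads was 1.99 (1.17 to 3.52), and no exons lay opposite. EdgeR gave a log2 fold change of 0.97 with an adjusted p of 0.307, so it did not pass. Cyc1, which passes electrons to cytochrome c, had 5, 6 and 2 reads against 15, 4 and 3, high in RGLS 1 alone. Uqcrc1, a large matrix-side subunit, had 1, 1 and 0 reads against 9, 4 and 3, a ratio of 6.01 with an interval of 1.41 to 53.9.

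In complex IV, Cox6c, an accessory subunit of every tissue, had 2.01, 1.13 and 0.913 CPM in model and 1.09, 0.655 and 1.26 CPM in RGLS. Model 1 was the highest library, the groups overlapped, and limma gave -0.22 (SE 0.220, adjusted p = 0.577). Vps13b lies opposite over 250 bases. Ndufa4l2, a paralog of Ndufa4 known as a hypoxia-induced gene, had 1, 5 and 6 reads against 4, 10 and 7, with overlap.

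Several complex IV subunits come in a form of most tissues and a form of heart and skeletal muscle, testis or lung. Cox7a1, the heart and muscle form, had 4, 5 and 5 reads in model and 6, 7 and 5 in RGLS, a ratio of reads of 0.966 with an interval of 0.454 to 2.10. Cox7a2, the form of most tissues, had 2, 0 and 0 reads against 1, 0 and 0. Cox6a2, the heart and muscle form of its subunit, with Itgad opposite over 70 bases, had 1 read in all, in RGLS 2, and the common Cox6a1 had 0, 0 and 1 against 2, 2 and 0.

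Cox4i1, with Emc8 opposite over 154 bases, had 2, 1 and 0 reads against 0, 2 and 1, and the lung form Cox4i2 had 0, 1 and 0 against 4, 1 and 0. Cox6b1 had 1, 1 and 0 against 0, 0 and 2, and the testis form Cox6b2 had 1 read, in RGLS 3. Cox8a, the form of most tissues, had 0, 1 and 1 reads against 8, 4 and 4, and its partner form Cox8b was not analysed here. As summed CPM, the 5 tissue forms gave 0.323 ± 0.0858 in model and 0.354 ± 0.0641 in RGLS and the 10 common forms 1.70 ± 0.575 and 1.64 ± 0.399 (SD, n = 3 each), both with overlap. Cytochrome c itself, Cycs, had 1 read in all, in RGLS 2.

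Some skeletal muscle markers differed between the groups beside these forms. Of 20 listed, 17 had a row and all 17 had a read in RGLS but 12 in model. Of all 20160 rows, 18206 had a read in RGLS and 16324 in model. Myh1, Myh4, Myh7, Tnni2 and Tnnt3 had no model read. Of these, Myh4 had 33 RGLS reads, Myh1 2, Myh7 1, Tnni2 2 and Tnnt3 4. The 17 rows summed to 9.26, 8.88 and 11.2 CPM in model and 15.1, 16.1 and 15.1 CPM in RGLS, with no overlap. Of these 17 rows 10 had a gene opposite. The 7 with none summed to 3.04 ± 0.395 CPM in model and 6.20 ± 0.266 CPM in RGLS (SD, n = 3 each), again higher in every RGLS library. Limma called Acta1, skeletal muscle actin with no gene opposite, higher (0.0382 against 2.33 CPM, adjusted p = 6.11e-05). It also called Des, which encodes desmin, higher (0.0572 against 1.67 CPM, adjusted p = 0.0012). Des is an overlapped row, so its reads cannot be assigned to it. The other 4 it tested, all but Neb overlapped, were not called, with log2 fold changes of 0.22 for Ckm, -0.10 for Ttn, 0.09 for Ryr1 and -0.02 for Neb. Tnnc2, fast troponin C and an overlapped row, was lower in every RGLS library (0.932 ± 0.0260 against 0.475 ± 0.196 CPM, SD, n = 3 each). It did not pass in edgeR (-0.95, adjusted p = 0.281). In bulk tissue more cells of a type and more RNA per cell cannot be told apart, and the part of muscle in any member's value was not tested.

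In complex V, Atp5b, the catalytic beta subunit of the F1 head that makes ATP, had 2.30, 1.36 and 0.571 CPM in model and 4.25, 4.81 and 1.87 CPM in RGLS. These values stood for 40, 24 and 10 reads and 109, 110 and 40 reads. RGLS 1 and 2 were above every model library, but RGLS 3 was below model 1, so the groups overlapped. The means were 1.41 ± 0.867 and 3.64 ± 1.56 CPM (SD, n = 3 each), and the ratio of reads was 2.63 (2.02 to 3.45). Limma gave a log2 fold change of 0.95 (SE 0.287, adjusted p = 0.0841), edgeR 1.37 (adjusted p = 0.0993) and DESeq2 1.44 (adjusted p = 0.0927), so Atp5b did not pass in any of them. Limma called it without model 1 (1.21, adjusted p = 0.0332; 2.81% of its rows were called higher) and without RGLS 3 (1.26, adjusted p = 0.0101; 3.75% of rows). It was also called with no filter (1.03% of 20160 rows were called higher). Over 15 alternatives the limma, edgeR or DESeq2 adjusted p ranged from 0.00229 to 0.32. Atp5b lies on GRCm38 chromosome 10 at 128083273 to 128090391, plus strand, with no exons opposite.

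Atp5pb, subunit b of the peripheral stalk that holds the head still, had 1.96, 2.83 and 2.62 CPM in model and 2.57, 1.79 and 2.85 CPM in RGLS. Model 1 and RGLS 2 were the lowest libraries and the groups overlapped. Limma gave -0.03 (SE 0.203, adjusted p = 0.947), which turned to 0.07 when every library was shifted to the same median. It overlaps Wdr77 over 337 bases and a near copy, Atp5pb-ps, has a row of its own, so its reads are uncertain. Atp5a1, the alpha subunit of the head, overlapped by Haus1 over 129 bases, had 0.403, 0.396 and 0.571 CPM against 0.701, 0.786 and 0.280 CPM. RGLS 1 and 2 were the highest libraries and RGLS 3 the lowest, so the groups overlapped.

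Atp5d, the delta subunit of the rotating central stalk, had 0.806, 0.622 and 0.628 CPM against 0.584, 0.262 and 0.234 CPM, with no overlap and the RGLS libraries lower. Its ratio of reads was 0.543 (0.315 to 0.924), edgeR gave -0.90 (adjusted p = 0.380), and Cbarp covers 68 of its exonic bases. Summed over the 5 head and central stalk subunits, F1 held 2.70 ± 0.843 CPM in model and 4.69 ± 1.93 CPM in RGLS, and the 11 stalk and membrane subunits held 3.84 ± 0.213 and 3.54 ± 0.494 CPM (SD, n = 3 each). Both sums overlapped between the groups. Without Atp5b the other 4 F1 subunits held 1.27, 1.301 and 1.31 CPM in model and 1.32, 1.22 and 0.608 CPM in RGLS, with overlap and a lower RGLS mean.

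**Figure D1:**
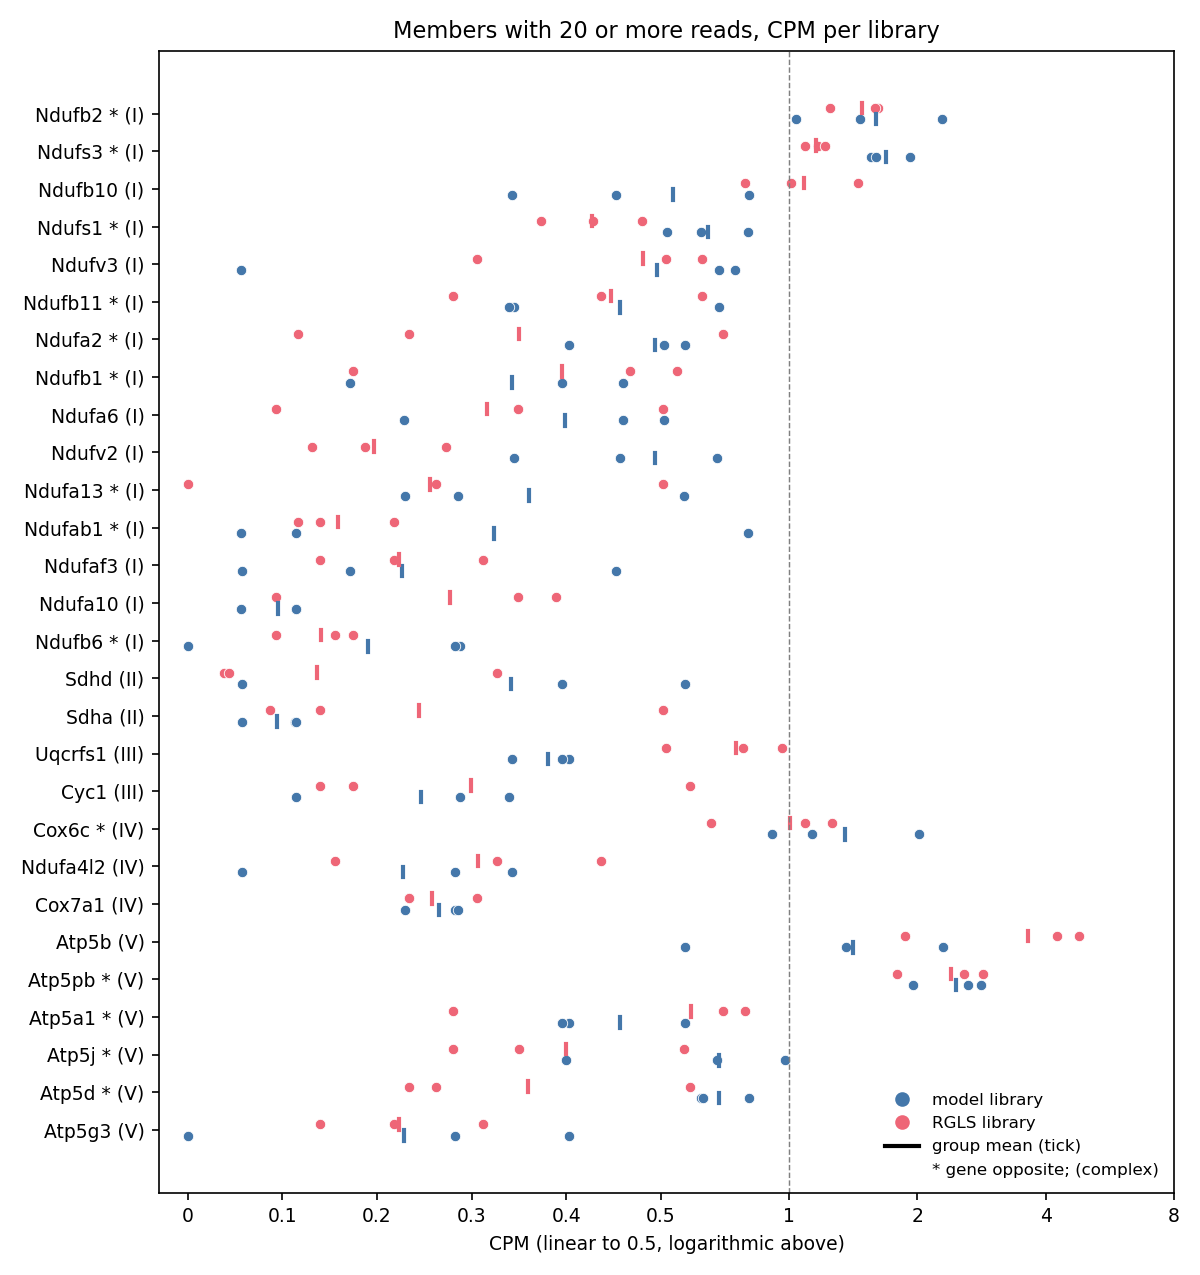
CPM of 28 of the 29 members with at least 20 reads, 1 point per library and a tick at each group mean, on an axis that is linear to 0.5 CPM and logarithmic above; an asterisk marks members with a gene opposite, and the dashed line is at 1 CPM, the limma filter. Atp5b spread from 0.571 to 4.81 CPM, and Ndufs3 had every RGLS library (1.09 to 1.22 CPM) below every model library (1.55 to 1.92 CPM).

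Levels of different members were compared only per kilobase of exon, as the mean CPM of the 6 libraries. Among the highest were Ndufa2 at 0.738, Ndufb10 at 0.664, Ndufs3 at 0.654, Cox6c2 at 0.601, Atp5b at 0.596 and Atp5pb at 0.594 CPM per kilobase. Ndufa2, Ndufs3 and Atp5pb among these are overlapped, Tmco6 lying opposite Ndufa2, and Cox6c2 is a processed pseudogene of 231 exonic bases, so this order holds only as far as their reads belong to them. Sdha, at 0.0412, and Uqcrc1, at 0.0314 CPM per kilobase, were far lower.

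The members were also summed by whether exons of another gene lie opposite. The 25 overlapped members summed to 13.5, 14.1 and 14.7 CPM in model and to 12.3, 11.1 and 11.5 CPM in RGLS, every RGLS library below every model library, a ratio of means of 0.823. All 6352 overlapped rows had a ratio of 0.825. The 69 members with no gene opposite summed to 9.32, 8.60 and 7.99 CPM in model and 14.4, 13.4 and 9.07 CPM in RGLS, a ratio of 1.42 with overlap. Without Atp5b their ratio was 1.20, and all 13620 such rows also had 1.20.

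**Figure D2:**
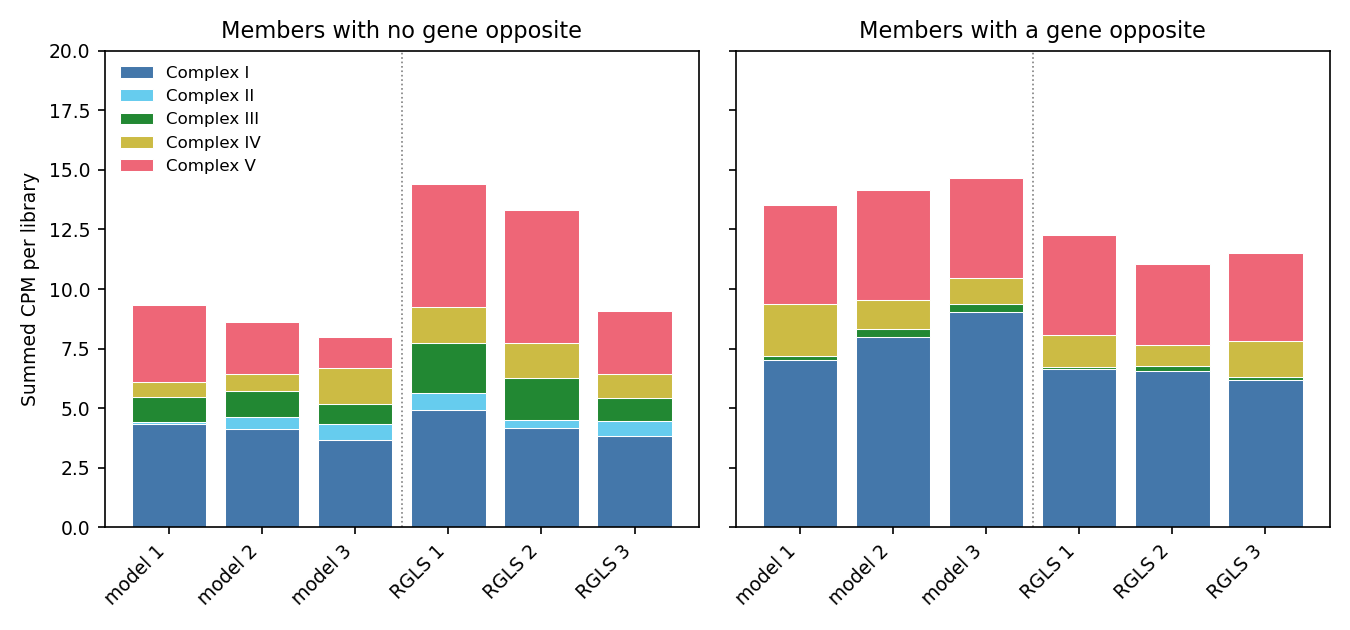
Summed CPM in each library, as bars stacked by complex, for the 69 members with no gene opposite on the left (the single read of Cycs is not drawn) and the 25 overlapped members on the right. On the left RGLS 1 and 2 (14.4 and 13.4 CPM) stand above the model libraries and RGLS 3 (9.07 CPM) does not, and on the right every RGLS bar (11.1 to 12.3 CPM) is below every model bar (13.5 to 14.7 CPM).

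Of the 29 members with at least 20 reads, Uqcrfs1 alone had all RGLS libraries above all model libraries, where 10.7% of the 7491 rows with as many reads did. Ndufs3, Ndufs1, Atp5d and Ndufv2 had them all below, where 10.4% of rows did; for overlapped rows the share below was 15.5% (and above 5.69%), and for rows with no gene opposite 5.28% (and above 15.8%). The median log2 ratio of reads was -0.41 over the 15 overlapped members (12 lower, 3 higher) beside -0.18 over all 3763 overlapped rows. Over the 14 members with no gene opposite it was 0.18 (9 higher, 5 lower) beside 0.43 over all 3673 such rows. In the limma fit the median log2 fold change over all 2319 tested rows was -0.17.

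**Figure D3:**
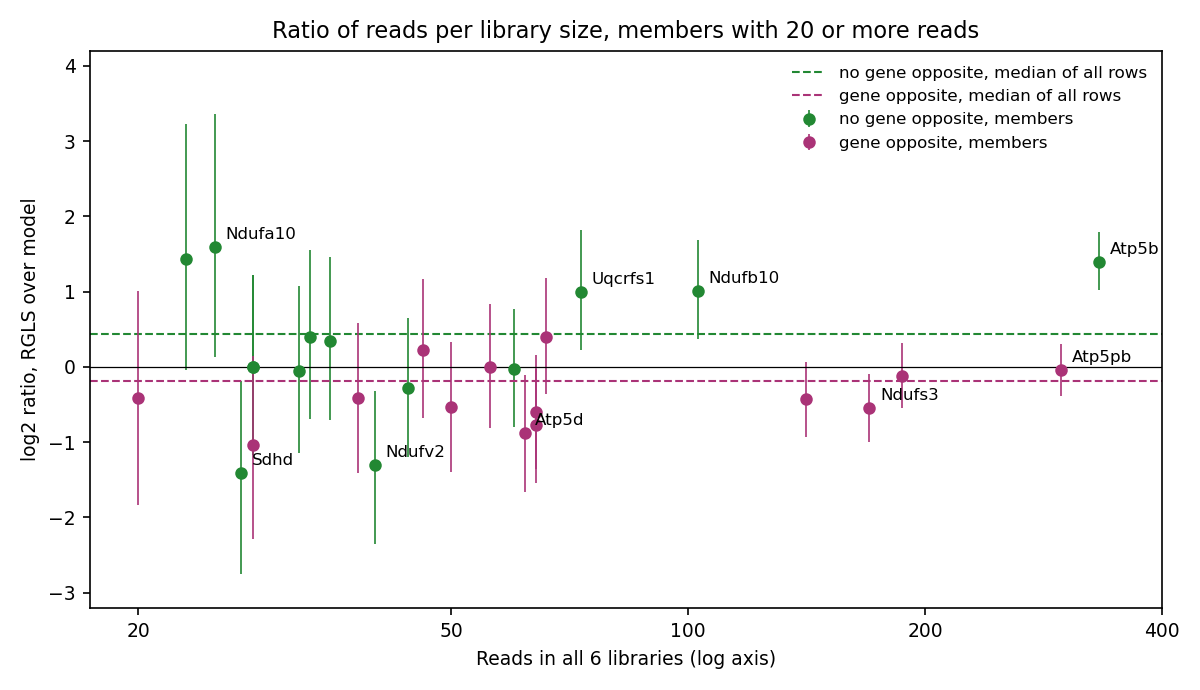
Log2 ratio of RGLS to model reads per library size against reads in all 6 libraries (log axis) for 28 of the 29 members with at least 20 reads, coloured by whether exons of a gene lie opposite, with bars for exact 95% counting intervals and dashed lines for the median of all rows of each class. The 15 overlapped members had a median of -0.41 beside a class median of -0.18, and the 14 others 0.18 beside 0.43.

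The 25 overlapped members formed 26 pairs with a gene opposite that had a row. The opposite row held more reads per kilobase of exon in 18 pairs and the member row in 8. Ndufb5, an accessory subunit of complex I, held 0.601 reads per kilobase against 296 for Mrpl47, a mitochondrial ribosomal protein. Atp5l, a membrane subunit of the ATP synthase, held 0.310 against 107 for Gm30934, and Uqcrc2, a large subunit of complex III, held 5.88 against 482 for Pdzd9. These pairs were chosen after their values were seen. Limma tested 15 of the opposite rows and called 0, with 1 at an unadjusted p under 0.05, and edgeR (18 tested) and DESeq2 also called 0.

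**Figure D4:**
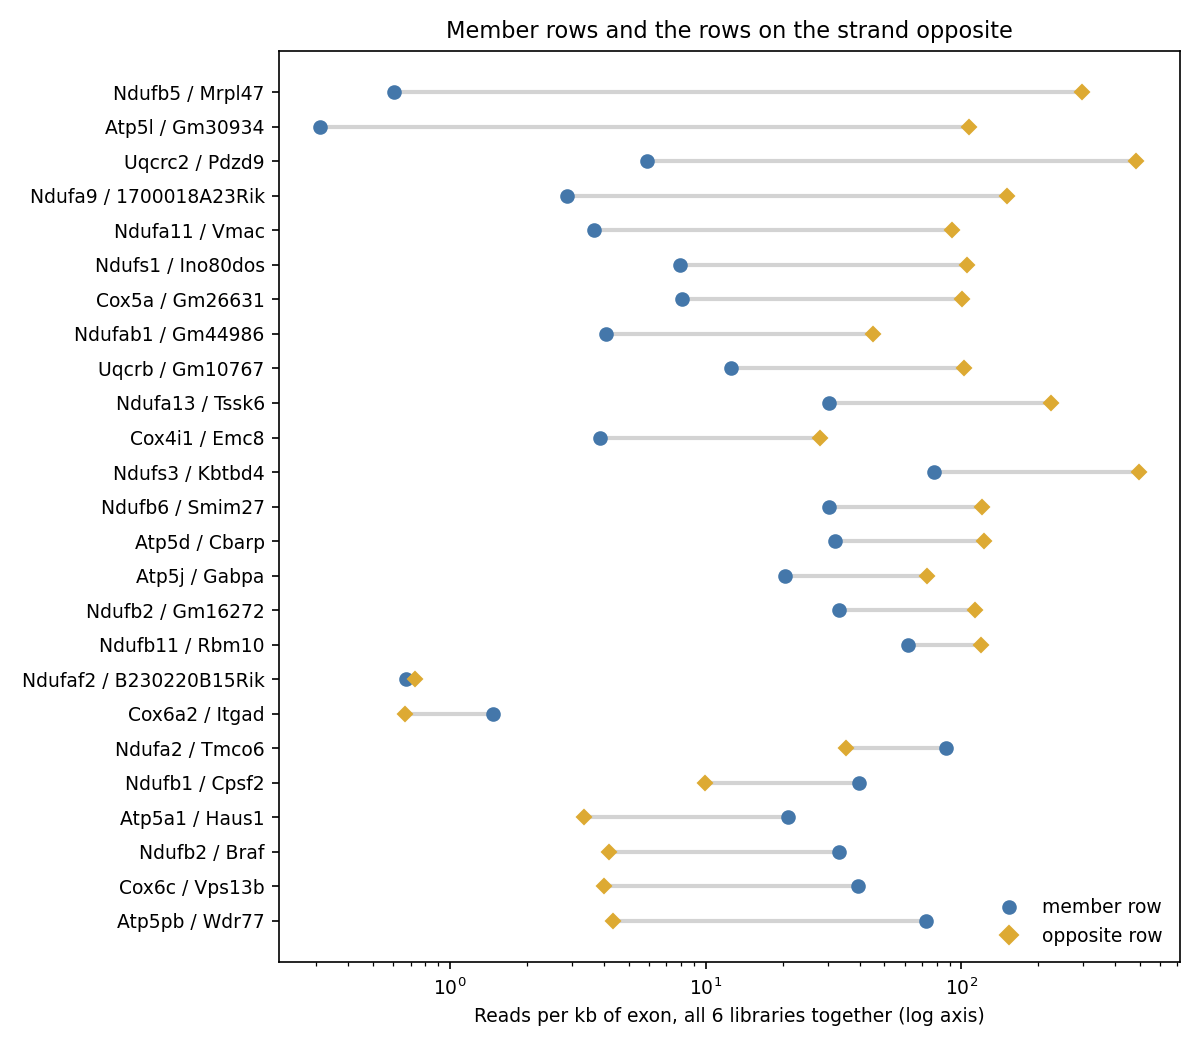
Reads per kilobase of exon over all 6 libraries for overlapped members and the gene on the opposite strand, on a log axis, with 25 of the 26 pairs drawn. The opposite row was higher in 18 of 26 pairs, from Ndufb5 at 0.601 beside Mrpl47 at 296 to Atp5pb at 72.6 beside Wdr77 at 4.34, where the member was higher.

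Subunits encoded in mitochondrial DNA work in the same complexes as the members. Of 13 listed, 7 had a row and all were tested by limma, which called 1, mt-Co1, the catalytic subunit of complex IV (16.0 against 42.4 CPM, log2 fold change 1.33, adjusted p = 0.0167), and 0 lower. EdgeR called 3 higher, mt-Co1, mt-Nd1 (adjusted p = 0.0320) and mt-Nd2 (adjusted p = 0.0471). The 7 rows summed to 322 ± 40.9 CPM in model and 329 ± 52.1 CPM in RGLS (SD, n = 3 each), with overlap. Most of this sum was the mt-Nd6 row (278 ± 45.9 and 242 ± 32.4 CPM, limma log2 fold change -0.19, adjusted p = 0.404). The strand of the reads in the 7 rows was not tested, so what part of them is subunit mRNA is not known. The other 6 rows, summed after their values were seen, held 46.4, 48.4 and 38.7 CPM in model and 125, 86.6 and 51.0 CPM in RGLS, every RGLS library being higher.

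The other lists of the pathway gave no calls by limma or edgeR. Factors that build the complexes had 8 rows of 11 listed for complex I outside the symbol rule (2 tested by limma), 4 of 4 for complex II (1), 6 of 6 for complex III (1), 22 of 24 for complex IV (5) and 4 of 4 for complex V (0). The complex IV factors summed to 79.2 ± 4.14 CPM in model and 67.8 ± 4.49 CPM in RGLS (SD, n = 3 each), with every RGLS library lower. Their ratio of means was 0.857, beside 0.825 for all overlapped rows and 0.877 for all rows, where every RGLS library was also lower. Of the 22 rows 10 were overlapped, and most of the sum was Cox20 (48.6 and 41.6 CPM) and Slirp (19.0 and 16.3 CPM), both overlapped. The 12 complex IV factor rows with no gene opposite summed to 1.25 ± 0.336 and 1.497 ± 0.313 CPM, with overlap. The 17 enzymes of the tricarboxylic acid cycle, all with a row, summed to 4.37, 4.58 and 2.74 CPM against 8.22, 6.16 and 3.55 CPM, RGLS 3 again lying within the model range; limma tested 0 and edgeR 3. Of 15 regulators of mitochondrial biogenesis 14 had a row (4 tested by limma), with sums of 14.9 ± 2.10 and 13.4 ± 1.25 CPM, and of 13 carriers and porins 11 had a row (1 tested), with sums of 2.89 ± 0.677 and 3.90 ± 0.415 CPM (SD, n = 3 each).

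Other cell type lists differed too. Peripheral nerve markers (8 of 8 with a row) summed to 0.342 ± 0.260 CPM in model and 3.24 ± 0.423 CPM in RGLS, with no overlap. Limma called Nefm, a neurofilament subunit and an overlapped row, higher (adjusted p = 6.11e-05). The 6 nerve rows with no gene opposite held 0.247 ± 0.229 and 0.671 ± 0.141 CPM, again higher in every RGLS library. Macrophage markers (9 of 10) summed to 15.7 ± 0.991 and 13.0 ± 0.784 CPM and keratinocyte markers (4 of 6) to 4.41 ± 1.07 and 2.70 ± 0.373 CPM, both lower in every RGLS library. The 8 macrophage rows with no gene opposite summed to 1.5005 ± 0.507 and 2.69 ± 0.819 CPM, higher on average in RGLS with overlap. The keratinocyte sum was nearly all Krt10, an overlapped row (4.33 and 2.68 CPM), and the 3 rows with no gene opposite held 0.0761 and 0.0130 CPM, with overlap. Brown adipocyte markers (3 of 4) summed to 0.171 ± 0.0585 and 0.0312 ± 0.0540 CPM, lower in every RGLS library and within a few reads of 0. The adipocyte sum was mostly Lipe, an overlapped row (4.94 and 3.65 CPM); the 7 rows with no gene opposite held 0.438 ± 0.122 and 0.175 ± 0.0979 CPM, lower in every RGLS library. The sums overlapped for adipocyte (8 of 8; 5.38 ± 1.44 and 3.83 ± 0.626 CPM), fibroblast (6 of 8; 0.893 ± 0.113 and 1.33 ± 0.903 CPM), endothelial (5 of 7; 0.438 ± 0.336 and 0.421 ± 0.220 CPM), cardiac muscle (4 of 7; 0.361 ± 0.173 and 0.207 ± 0.144 CPM) and erythroid markers (2 of 6; 0.551 ± 0.115 and 0.566 ± 0.153 CPM; SD, n = 3 each). Their part in the members' values was not tested.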

How the data were processed

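Total RNA of 6 tumour samples (3 model, 3 RGLS) was sequenced. The authors deposited 1 table of CPM values scaled by TMM for 20160 gene symbols; no column belonged to another sample. Per the submitters' processing notes, Bowtie2, HTSeq and mm10 were used; versions, roles, strand setting and annotation are not given in the sources used here. All values (100%) were whole multiples of 1 read within 0.001 of a read, so reads and effective library sizes were recovered. No pair of libraries agreed within sampling noise.

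Gene positions came from GENCODE vM21 on GRCm38, to which 19972 rows matched, 240 through a RefSeq synonym. The comparison was RGLS against model with limma 3.58.1 (R 4.3.3), 2-sided, on log2(CPM + 1) with an intensity trend, over rows with at least 1 CPM in 3 libraries, with Benjamini-Hochberg adjustment over all rows tested and a threshold of 0.05. Fold changes on that scale understate those of low rows. On the recovered reads, edgeR 4.0.16 (quasi-likelihood) called 35 rows higher and 14 lower, and DESeq2 1.42.0 called 37 and 10. Scripts were tested on simulated data. Sums over members are descriptions with no test. The members and lists were chosen with earlier results of these data known. Named were members passing the limma filter, the 3 with most reads per complex, and tissue isoform pairs. Up to 12 members of at least 20 reads whose groups did not overlap were named as well. Other members, Ndufa10 and Sdhc among them, fall outside these rules and were named with their values known. The values of 1 member are not reported here; it is counted in the sums.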

Additional observations from a re-analysis of the deposited data

How the results depend on the processing

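The table holds about 2% of each library and the median member 11.5 reads, so moderate differences were not detectable for most members, and 25 of 94 members share bases with a gene opposite. RGLS 3 lay apart from RGLS 1 and 2 in several sums.

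Against 22 rows called higher and 12 lower, the calls were 9 and 4 with a pseudocount of 0.1, 52 and 20 with a filter of 0.5 CPM, 208 and 67 with no filter, 10 and 4 with the same median in every library, and 43 and 4 when edgeR used TMM factors of these rows. EdgeR with the authors' library sizes called 35 higher and DESeq2 37. Against 0 members called higher, 1 (Atp5b) was called with no filter. Leaving out 1 library gave 1 to 82 rows higher and 3 to 99 lower, 0 to 1 members higher and 0 lower; RGLS 3 left out gave 82 and 99, model 1 gave 62 and 25, model 2 gave 16 and 5, model 3 gave 7 and 3, RGLS 1 gave 1 and 3, and RGLS 2 gave 1 and 4. The cause was not tested.

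Same-numbered libraries did not deviate together for replicates 1 and 2 (correlations 0.00441 and -0.00556). For replicate 3 the correlation was 0.378, the highest of any model and RGLS pair. The labels do not state a pairing, and the numbers were not taken as pairs. The fit with a replicate block called 111 rows higher and 120 lower, and 1 member higher (Atp5b, adjusted p = 0.00229).

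The log2 ratio of summed CPM was, for all members (0.07), 0.27 as a share of all rows, -0.20 as a share of rows with no gene opposite, 0.51 over members with no gene opposite and -0.075 without the member of largest mean. In the same order complex I (-0.16) had 0.031, -0.43 and 0.092. Complex II (0.37) had 2.18 without its largest member. Complex IV (0.07) had -0.19 as a share of rows with no gene opposite, 0.50 over members with none opposite and 0.51 without its largest member, and complex V (0.33) had 0.062, 1.002 and -0.16. Leaving out 1 library gave -0.02 to 0.17 for all members, -0.22 to -0.11 for complex I, -0.08 to 0.86 for II, 0.28 to 0.70 for III, -0.06 to 0.18 for IV and 0.22 to 0.49 for V. The cause was not tested.

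Reversed signs occurred for Ndufb2 (limma log2 fold change -0.04), at 0.062 with the same median, 0.051 with TMM factors, 0.14 without model 3 and 0.03 without RGLS 1. For Atp5pb (-0.03) they were 0.070 with the same median, 0.12 with TMM factors, 0.027 with DESeq2, 0.04 without model 2, 0.004 without model 3 and 0.10 without RGLS 2, and leaving out 1 library gave -0.14 to 0.10.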

Other observations

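The 10 pseudogene rows left out by the rule summed to 1.61, 1.24 and 0.514 CPM in model and 2.81, 3.19 and 1.59 CPM in RGLS, with means of 1.12 ± 0.559 and 2.53 ± 0.835 CPM (SD, n = 3 each). RGLS 3 fell just below model 1, so the groups overlapped. Atp5pb-ps, a copy of the peripheral stalk gene Atp5pb, had 8, 5 and 1 reads in model and 33, 30 and 14 in RGLS, without overlap, while Atp5pb itself had 34, 50 and 46 reads against 66, 41 and 61. Ndufa12-ps had 7, 5 and 0 reads against 19, 21 and 8, whereas Ndufa12, an accessory subunit of complex I, had 1, 0 and 8 against 0, 0 and 7. Reads of a pseudogene and its parent gene can be exchanged in mapping, and both were singled out by their values.

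Coa5, a complex IV assembly factor with no gene opposite, also picked by its values, had 3, 2 and 1 reads in model and 21, 11 and 6 in RGLS, with no overlap. Among rows with no gene opposite and at least 20 reads, to which Coa5 and Atp5pb-ps belong, 15.8% had every RGLS library above every model library.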
